A study of Mus musculus with 30 samples.

Results

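The ligands and receptors of the 4 classical axon guidance systems were followed in neuronal progenitor cells (NPCs) made from mouse embryonic stem cells (ESCs) by neuronal differentiation, to see which families fell or rose when neural differentiation failed. The members were the genes of the deposited count table whose symbols belong to the Eph receptor, ephrin, semaphorin (classes 3 to 7), plexin, Robo, Slit, netrin and Unc5 families. This rule used names and no measured value, and it matched 66 of 25400 genes. One of them, *Unc50*, fits the pattern by its letters alone and encodes an unrelated protein of the Golgi, so it was left out of the family counts, which leaves 65 guidance genes (34 ligands and 31 receptors). *Plxnb3* had too few reads to be tested (93 counts over all libraries), so tests covered 64 guidance genes among 16582 genes. The lines were WT ESCs, ESCs with a Cas9 deletion in *Mbd3* (*Mbd3* KO), and 6 lines in which the same KO background was given a construct for a variant of the methyl-CpG-binding proteins MBD3 or MBD2, driven from a CAG promoter at a recombination site. The variants were MBD3a (full-length MBD3), MBD3ΔMBD (MBD3 without its MBD domain), MBD2a (full-length MBD2), MBD2aΔGR (MBD2a without the glycine-arginine stretch), MBD2aR181C (MBD2a whose MBD domain carries a single amino acid exchange) and the shorter isoform MBD2t, which ends before the coiled coil. There were 3 RNA-seq libraries per line, each from an individually picked clone except for MBD2t, whose 3 libraries are repeats of 1 clone and so carry no spread between clones. All lines, WT included, came from ESCs of mixed 129 and C57BL/6 background that carry the biotin ligase BirA.

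Growth cones read guidance cues through cell surface receptors. Slits are secreted repellents that signal through Robo receptors, and netrins attract axons through Dcc and repel them through Unc5 receptors. Ephrins are bound to the cell membrane and activate Eph receptor tyrosine kinases on neighbouring cells, while semaphorins act on plexins, for most class 3 members with a neuropilin as co-receptor. In the embryonic neural tube these systems steer commissural and motor axons, and many of the same genes also act in vessels, epithelia and early embryos.

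The libraries held between 27993858 and 49392806 counted reads, and 3 reads corresponded to between 0.0607 and 0.115 CPM (read counts scaled to a common library size after TMM scaling), a floor that covers counting error only. *Mbd3*, the deleted gene, had between 149 and 157 CPM in WT and between 34.2 and 73.8 CPM in *Mbd3* KO, so reads on it remained. *Mbd2*, the gene of the MBD2 constructs, had between 64.2 and 70.9 CPM in *Mbd3* KO, between 253 and 325 CPM in MBD2aR181C, between 280 and 700 CPM in MBD2aΔGR and between 335 and 356 CPM in MBD2t. The libraries labelled MBD2a held 87.2, 86.3 and 67.0 CPM of *Mbd2*, so s15 lay within the *Mbd3* KO range and the other two above it, all far below the other MBD2 lines. By Western blot of the ESC lines, the study reported equal protein levels for the MBD2a and MBD2aΔGR constructs. The values here are RNA of NPCs, so both measure and stage differ. MBD2a names these libraries by their label here. A list of neural progenitor markers had a summed level between 2217 and 3572 CPM in WT and between 565 and 622 CPM in *Mbd3* KO, and all 12 of its tested genes were called lower there. In the same comparison all 8 trophoblast and all 7 pluripotency markers were called higher. Some libraries stood apart from their line. The WT library s03 differed most from the other WT libraries. Genes on chromosome 1 deviated from the mean of the other libraries of their line by a median of -0.35 (log2) in s04 (*Mbd3* KO) and of -0.42 in s15 (MBD2a). This measure is relative, so chromosome 1 is called low in s04 and s15 only against those libraries. It was 0.27 in s06 (*Mbd3* KO) and 0.20 in s13 (MBD2a). Library s18 (MBD2aΔGR) had 1139.5 CPM on extraembryonic endoderm markers against at most 131 CPM in the other libraries of that line. Counts are therefore also given without s03, s04, s15 and s18, a choice made after the data had been seen. The share of all genes called was not computed for that fit, so those counts describe the members only.

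Members can lie next to each other in the genome and still differ, and the promoters of 2 such pairs are shown because they hold the largest fall, the largest rise and the Robo gene that was lower with MBD2a. *Robo4* and *Robo3* lie tail to tail on chromosome 9 with 1.6 kb between them, and *Ephb2* and *Epha8* lie on the same strand of chromosome 4 with 93.4 kb between them. Each line gives the 250 bases before the RefSeq start of the gene (RefSeq table on GRCm38.p6), 5′ to 3′ on the gene's strand, with every CG in capitals because MBD2 binds methylated CG. Matched letter for letter to mm9, the build of the count table, they occur once each, at chr9:37240761-37241010 (minus strand), chr9:37209307-37209556 (plus strand), chr4:136391928-136392177 (minus strand) and chr4:136512732-136512981 (minus strand).
Robo3: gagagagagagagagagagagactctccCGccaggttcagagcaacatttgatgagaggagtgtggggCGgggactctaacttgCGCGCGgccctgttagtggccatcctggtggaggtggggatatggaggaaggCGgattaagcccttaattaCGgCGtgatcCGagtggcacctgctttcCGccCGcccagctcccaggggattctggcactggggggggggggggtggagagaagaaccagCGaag
Robo4: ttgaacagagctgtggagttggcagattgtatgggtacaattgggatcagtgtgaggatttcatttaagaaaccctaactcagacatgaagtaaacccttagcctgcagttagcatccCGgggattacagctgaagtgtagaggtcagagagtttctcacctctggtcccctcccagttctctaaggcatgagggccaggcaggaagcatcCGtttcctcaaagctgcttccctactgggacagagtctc
Ephb2: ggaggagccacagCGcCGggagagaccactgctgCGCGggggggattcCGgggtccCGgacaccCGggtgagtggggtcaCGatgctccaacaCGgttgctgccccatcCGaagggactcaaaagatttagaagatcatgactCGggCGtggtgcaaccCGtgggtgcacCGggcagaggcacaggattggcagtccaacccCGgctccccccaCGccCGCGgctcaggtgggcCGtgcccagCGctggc
Epha8: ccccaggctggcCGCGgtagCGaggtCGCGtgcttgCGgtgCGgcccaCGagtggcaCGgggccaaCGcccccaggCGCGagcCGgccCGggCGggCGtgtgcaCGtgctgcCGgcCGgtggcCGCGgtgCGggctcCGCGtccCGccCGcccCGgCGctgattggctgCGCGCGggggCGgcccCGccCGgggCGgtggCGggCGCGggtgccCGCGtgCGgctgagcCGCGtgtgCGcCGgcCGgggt
The *Robo3* window holds 12 CG, the *Robo4* window 2, the *Ephb2* window 20 and the *Epha8* window 46. Among all 27025 genes of the promoter table the median was 6.

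Guidance genes were lower more often than higher in *Mbd3* KO NPCs. Calls came from a model that edgeR fitted to the 24 libraries together (quasi-likelihood F test), and needed an adjusted p under 0.05 (Benjamini-Hochberg, all genes tested) and an absolute log2 fold change above 1. Of the 64 guidance genes, 23 were called lower and 8 higher in *Mbd3* KO than in WT, while 14.2% of all tested genes were called lower and 19.6% higher. The median log2 fold change was -0.52 over the guidance genes and -0.03 over all genes. Among receptors 13 of 30 were called lower and 3 higher, and among ligands 10 of 34 were called lower and 5 higher. In 24 of the 64 genes every *Mbd3* KO library lay below every WT library and in 12 every one lay above, where 31.1% of all genes were found on each side. Without s03, s04, s15 and s18, 24 members were called lower and 8 higher. Because these are bulk samples, fewer cells of a type and less RNA per cell cannot be told apart. The neural, trophoblast and pluripotency marker lists above moved with the same libraries, and their part in the result was not tested.

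**Figure D1:**
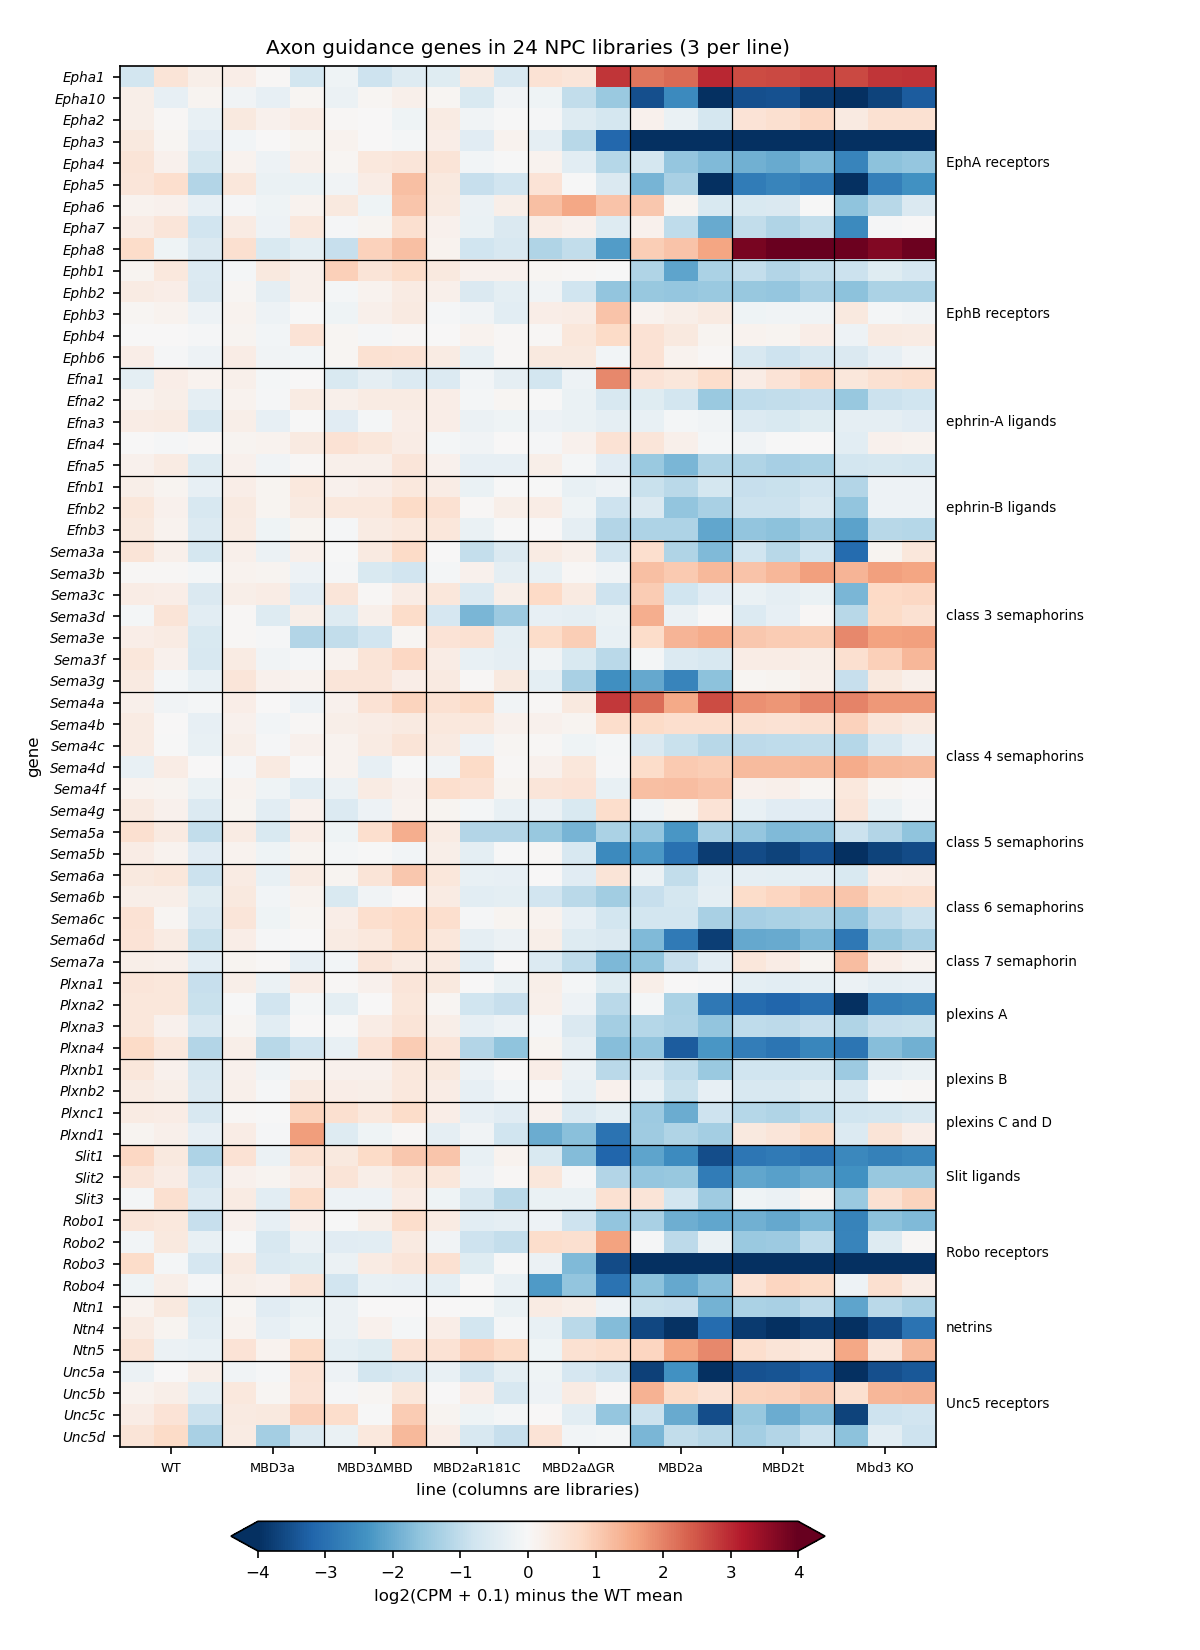
Level of the 64 tested guidance genes (rows, grouped by family) in each of the 24 libraries (columns, 3 per line), as log2(CPM + 0.1) minus the mean of the 3 WT libraries; blue is lower and red is higher than WT. MBD2a, MBD2t and *Mbd3* KO show the deep blue rows of *Robo3*, *Epha3*, *Ntn4* and *Unc5a*, while the MBD3a, MBD3ΔMBD and MBD2aR181C columns hold few strong colours.

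In the Slit and Robo families, 2 of 3 ligands and 2 of 4 receptors were called lower. *Robo3*, which commissural axons need to cross the midline, stood at 794, 447 and 298 CPM in WT and at 2.94, 6.71 and 8.36 CPM in *Mbd3* KO. These groups lay far apart, and the mean in *Mbd3* KO was 85.0-fold lower by the fit (log2 fold change -6.41, standard error 0.77, adjusted p = 1.85e-06, edgeR). *Robo1*, a receptor for repulsion by Slits, had 197, 190.5 and 75.2 CPM in WT and 21.9, 45.5 and 41.7 CPM in *Mbd3* KO (log2 fold change -2.08, standard error 0.38, adjusted p = 0.000139, edgeR). *Slit1*, a secreted repellent, had 55.2, 40.2 and 13.1 CPM in WT and 5.06, 4.65 and 4.92 CPM in *Mbd3* KO. The WT library s03 was the lowest of its group, and the *Slit1* libraries still did not overlap (log2 fold change -2.89, standard error 0.56, adjusted p = 0.000222, edgeR). *Slit2* was called lower as well (log2 fold change -1.86, standard error 0.38, adjusted p = 0.000382, edgeR). The remaining members of these families were not called. *Slit3* had a log2 fold change of 0.25 (adjusted p = 0.685, edgeR), *Robo2* of -0.69 (adjusted p = 0.191, edgeR), and *Robo4*, the Robo of endothelial cells and the neighbour of *Robo3*, of 0.30 (adjusted p = 0.286, edgeR).

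**Figure D2:**
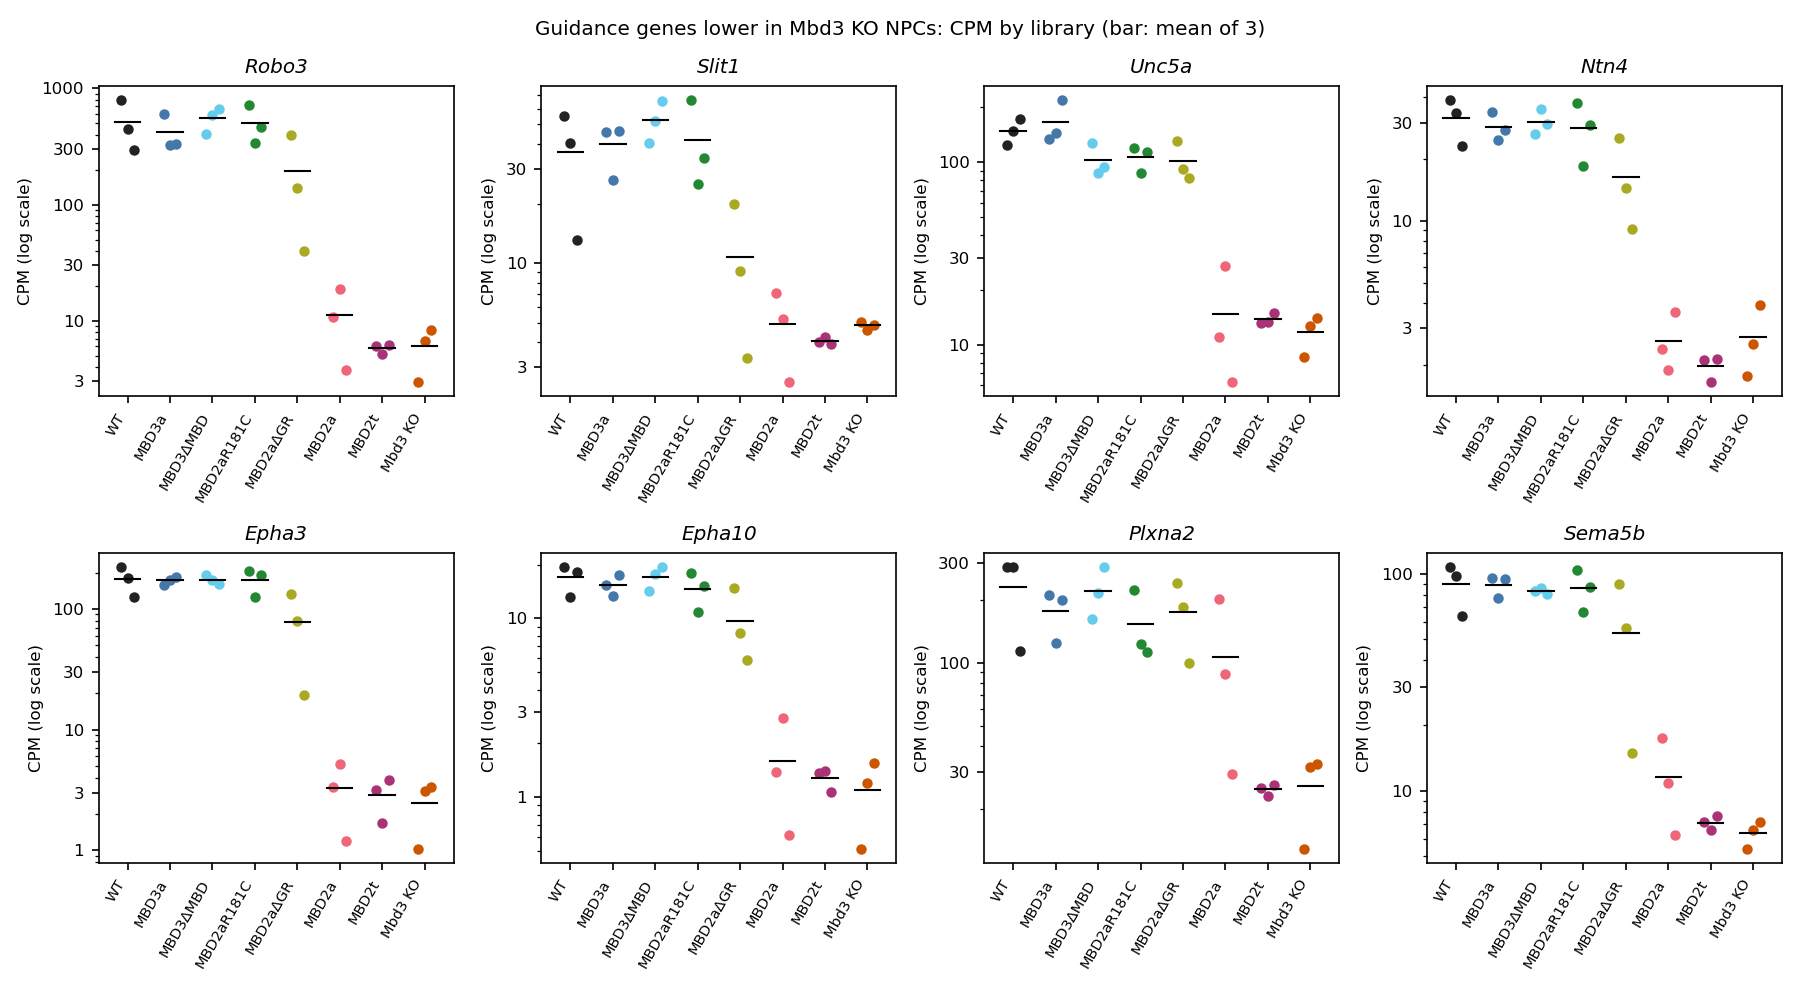
CPM (log axis) of 8 guidance genes called lower in *Mbd3* KO, by line; points are libraries and bars are means of 3 libraries. *Robo3*, *Epha3*, *Ntn4* and *Unc5a* are low in every MBD2a, MBD2t and *Mbd3* KO library, while the MBD2a libraries of *Plxna2* spread from 29.2 to 202 CPM.

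In the netrin system 2 of 3 netrins and 2 of 4 Unc5 receptors fell, and 1 of each family rose. *Ntn4*, a secreted netrin related to laminins, had 38.6, 33.3 and 23.01 CPM in WT and 1.77, 2.52 and 3.89 CPM in *Mbd3* KO (log2 fold change -3.53, standard error 0.37, adjusted p = 4.55e-07, edgeR). *Ntn1*, the attractant of the floor plate, had 89.9, 107 and 56.5 CPM in WT and 18.9, 38.7 and 33.2 CPM in *Mbd3* KO (log2 fold change -1.48, standard error 0.27, adjusted p = 0.000137, edgeR). Neither netrin overlapped between the lines, and *Ntn4* lost the larger share of its RNA. *Unc5a*, a receptor for netrin repulsion, had 124, 149 and 173 CPM in WT and 8.63, 12.7 and 14.1 CPM in *Mbd3* KO (log2 fold change -3.65, standard error 0.38, adjusted p = 4.67e-07, edgeR). *Unc5b*, a member of the same family that also acts in vessels, went the other way, from 43.5, 46.8 and 30.6 CPM to 61.9, 99.9 and 101 CPM (log2 fold change 1.12, standard error 0.25, adjusted p = 0.000811, edgeR). These libraries did not overlap either. *Unc5c* was called lower with overlapping libraries (log2 fold change -1.40, standard error 0.58, adjusted p = 0.0441, edgeR), and *Ntn5*, at under 0.45 CPM in both lines and with exons that overlap *Sec1* on the opposite strand, was called higher, also with overlap (log2 fold change 1.74, standard error 0.55, adjusted p = 0.00978, edgeR). The call of *Unc5c* was lost without s01, s02 or s04 (between -1.30 and -0.92), that of *Ntn5* without s03 or s04 (between 1.43 and 1.44) and that of *Unc5b* without s03 (0.96), values in parentheses being log2 fold changes. Of 12 genes listed as co-receptors and other cues of these systems, 5 were called lower, where 14.2% of all tested genes were. The falls were *Dcc*, the receptor for netrin attraction (-5.51), *Draxin*, a secreted ligand of Dcc (-4.03), *Ntng2* (-3.28), *Rgmb* (-2.998) and *Dscam* (-1.79), all as log2 fold changes. *Dscam* was low in both lines and overlapped, with 1.58, 1.79 and 0.292 CPM in WT and 0.257, 0.509 and 0.238 CPM in *Mbd3* KO.

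The log2 fold changes of the EphA receptors covered the widest range of the families, with 5 of 9 called lower and 2 higher. *Epha3* had 224, 180.8 and 125 CPM in WT and 1.03, 3.08 and 3.33 CPM in *Mbd3* KO. Its mean was 70.3-fold lower (log2 fold change -6.14, standard error 0.62, adjusted p = 3.23e-07, edgeR), with no overlap. *Epha10*, whose kinase domain is thought to be inactive, had 19.5, 13.2 and 18.2 CPM in WT and 0.515, 1.20 and 1.56 CPM in *Mbd3* KO (log2 fold change -3.94, standard error 0.42, adjusted p = 5.61e-07, edgeR). *Epha5* fell from a lower level, 6.71, 7.76 and 2.09 CPM, to 0.114, 0.642 and 0.820 CPM (log2 fold change -3.34, standard error 0.70, adjusted p = 0.000464, edgeR). *Epha4*, an EphA receptor that also binds B-type ephrins, had 127, 101 and 53.7 CPM in WT and 13.95, 28.4 and 30.1 CPM in *Mbd3* KO (log2 fold change -1.96, standard error 0.36, adjusted p = 0.000128, edgeR). It lies on chromosome 1, which was low in s04, and without that library it was still called. *Epha6* was called lower at under 0.25 CPM in every WT library, and its call was lost without s01, s02, s04 or s05 (between -1.87 and -1.49).

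*Epha8* and *Epha1* were the EphA receptors called higher. *Epha8* had 3.73, 1.93 and 1.44 CPM in WT and 34.4, 29.6 and 34.2 CPM in *Mbd3* KO, so that every KO library lay above every WT library. The fit put it 13.9-fold higher (log2 fold change 3.80, standard error 0.42, adjusted p = 8.28e-07, edgeR), the largest rise among the guidance genes in this comparison. Its neighbour *Ephb2*, an EphB receptor of commissural and cortical axons, had 273, 263 and 147 CPM in WT and 70.3, 91.0 and 91.0 CPM in *Mbd3* KO (log2 fold change -1.44, standard error 0.29, adjusted p = 0.000285, edgeR), so the pair moved in opposite directions. *Epha1*, an Eph receptor of epithelia, had 1.88, 4.59 and 3.82 CPM in WT and 20.7, 23.9 and 24.6 CPM in *Mbd3* KO (log2 fold change 2.75, standard error 0.50, adjusted p = 0.000128, edgeR). Some of its exons overlap those of *Zyx* on the opposite strand, and whether counting used the strand is not stated. *Epha2* had a log2 fold change of 0.51 and *Epha7* of -0.56 (adjusted p = 0.0281 and 0.352, edgeR), and neither was called. The *Epha2* libraries did not overlap, with 88.3, 77.8 and 60.9 CPM in WT and 96.3, 113 and 114 CPM in *Mbd3* KO.

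Fewer calls were found among the ephrins and the EphB receptors. Of 5 EphB receptors *Ephb2* alone was called, and the log2 fold changes of the others lay between -0.73 (*Ephb1*) and 0.18 (*Ephb4*). Of 5 A-type ephrins, *Efna2* was called lower, with 45.2, 47.7 and 31.5 CPM in WT and 14.2, 22.3 and 23.3 CPM in *Mbd3* KO (log2 fold change -1.05, standard error 0.23, adjusted p = 0.000561, edgeR). It stood close to the threshold of 1 for the log2 fold change, and its call was lost without s01, s02 or s04 (between -0.99 and -0.86). Of 3 B-type ephrins, *Efnb3*, a midline barrier for corticospinal axons, fell from 66.8, 56.0 and 34.9 CPM to 11.4, 23.3 and 23.1 CPM (log2 fold change -1.44, standard error 0.32, adjusted p = 0.000774, edgeR). *Efnb2*, the ephrin with the highest level per length in WT, had 241, 199 and 111 CPM in WT and 58.8, 153 and 152 CPM in *Mbd3* KO, which overlap (log2 fold change -0.60, adjusted p = 0.135, edgeR). *Efna1*, *Efna3* and *Efna4* lie side by side on chromosome 3 and had log2 fold changes of 0.56, -0.46 and -0.01, none of them called.

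Of the 13 tested members of semaphorin classes 3 and 4, 0 were called lower and 4 higher, where 14.2% and 19.6% of all tested genes were. In edgeR's test 7 of these members had an unadjusted p-value under 0.05, given without its share over all genes. In classes 5 and 6, 4 of 6 were called lower. The sets are small, and the difference between the classes was not tested. *Sema3e*, a class 3 ligand that binds Plexin-D1 directly, had 8.19, 8.61 and 4.43 CPM in WT and 26.2, 20.8 and 21.6 CPM in *Mbd3* KO (log2 fold change 1.70, standard error 0.36, adjusted p = 0.000566, edgeR). *Sema3b*, a secreted repellent, had 4.72, 4.76 and 4.36 CPM in WT and 11.9, 14.5 and 13.8 CPM in *Mbd3* KO (log2 fold change 1.54, standard error 0.19, adjusted p = 2.13e-06, edgeR). *Sema4a*, a transmembrane semaphorin also known from immune cells, had 2.66, 2.12 and 2.22 CPM in WT and 9.46, 7.95 and 7.93 CPM in *Mbd3* KO (log2 fold change 1.86, standard error 0.52, adjusted p = 0.00454, edgeR). *Sema4d*, the ligand of Plexin-B1, had 17.7, 26.6 and 21.8 CPM in WT and 61.5, 53.9 and 52.2 CPM in *Mbd3* KO (log2 fold change 1.34, standard error 0.21, adjusted p = 2.49e-05, edgeR). None of these 4 rises overlapped WT. *Sema3f*, next to *Sema3b* on chromosome 9, had a log2 fold change of 0.93 (adjusted p = 0.00703, edgeR) and stayed below the fold threshold, and *Sema4c*, the class 4 gene with the highest WT level per length, had -0.69 (adjusted p = 0.00465, edgeR).

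Both class 5 semaphorins were lower. *Sema5b*, a transmembrane semaphorin with thrombospondin repeats, had 108, 97.0 and 63.7 CPM in WT and 5.40, 6.595 and 7.19 CPM in *Mbd3* KO (log2 fold change -3.80, standard error 0.46, adjusted p = 1.95e-06, edgeR), well apart. *Sema5a* had 23.2, 19.3 and 7.43 CPM in WT and 8.23, 6.53 and 4.84 CPM in *Mbd3* KO, where s03 lay within the range of the KO libraries (log2 fold change -1.35, standard error 0.47, adjusted p = 0.0183, edgeR). Its call was lost without s01, s02, s05 or s06 (between -1.35 and -1.04). *Sema6d*, a class 6 ligand of A-type plexins, fell from 48.9, 42.1 and 17.9 CPM to 4.55, 11.6 and 13.5 CPM (log2 fold change -1.87, standard error 0.43, adjusted p = 0.00107, edgeR). *Sema6c* was called lower (log2 fold change -1.20, standard error 0.29, adjusted p = 0.00135, edgeR), a call that was lost without s01 (-0.89). *Sema6a*, *Sema6b* and the class 7 member *Sema7a* were not called, with log2 fold changes of -0.07, 0.82 and 0.61.

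Among the plexins, 3 of the 4 in the A group were called lower. A plexins are the receptors that pair with neuropilins for class 3 ligands and bind class 6 ligands directly. *Plxna2* had 288, 288 and 114 CPM in WT and 12.9, 31.6 and 32.9 CPM in *Mbd3* KO (log2 fold change -3.15, standard error 0.56, adjusted p = 0.000100, edgeR). The lowest value is that of s04, the library with low chromosome 1, where *Plxna2* lies, and *Plxna2* was still called without it. *Plxna4* had 19.99, 15.7 and 5.23 CPM in WT and 1.46, 3.56 and 3.07 CPM in *Mbd3* KO (log2 fold change -2.32, standard error 0.63, adjusted p = 0.00372, edgeR). *Plxna3* was called lower close to the threshold (log2 fold change -1.08, standard error 0.28, adjusted p = 0.00252, edgeR), and its call was lost without s01 or s04 (between -0.99 and -0.84). *Plxna1*, with 334, 322 and 124 CPM in WT and 203, 185 and 190.7 CPM in *Mbd3* KO, overlapped and was not called (log2 fold change -0.43, adjusted p = 0.170, edgeR). The 2 tested B plexins and the C and D plexins had log2 fold changes between -0.81 (*Plxnc1*) and 0.13 (*Plxnd1*), and none was called. *Plxnc1* stayed under the fold threshold with 9.15, 9.02 and 4.60 CPM in WT and 4.12, 4.27 and 4.58 CPM in *Mbd3* KO, which do not overlap (adjusted p = 0.0322, edgeR). Of 6 semaphorin co-receptors, 5 were called lower, where 14.2% of all tested genes were. Among them were *Cntn2* (-4.92), *Nrcam* (-4.29) and *L1cam* (-2.69), adhesion molecules of axons, and *Nrp2* (-1.30), the neuropilin of Sema3f. *Nrp1*, the neuropilin of Sema3a, had 0.18 (adjusted p = 0.750, edgeR).

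Inside the cell, 12 of 31 listed effectors of guidance receptors were called lower and 4 higher, where 14.2% and 19.6% of all tested genes were. The falls include *Crmp1*, *Dpysl2*, *Dpysl3*, *Dpysl4* and *Dpysl5*, the collapsin response mediators of semaphorin signalling, with log2 fold changes between -5.12 (*Dpysl4*) and -2.57 (*Dpysl2*). They also include *Srgap3*, which links Robo receptors to Rac (-2.995), and *Chn1*, an effector of EphA4 (-2.37). The rises included *Mical2* (2.59), *Farp1* (1.06) and *Ablim1* (1.02). The cytoskeletal effector *Enah* had -0.02 and the Slit effector *Srgap1* -0.15, neither called (adjusted p = 0.922 and 0.707, edgeR).

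Per kilobase of exon, *Robo3* had the highest median of all 65 guidance genes in WT NPCs, 66 CPM per kb with libraries between 44.0 and 117.2. *Efnb2* came next with 41.5 CPM per kb (23.2 to 50.4), followed by *Unc5a* with 35.8 (29.9 to 41.4), *Plxna1* with 35.6 (13.8 to 37.0), *Plxnb2* with 34.0 (19.2 to 36.3) and *Epha3* with 31.9 (22.1 to 39.6). The ranges of neighbours in this order overlap, from *Robo3* to *Epha3*. Of these 6 genes, *Robo3*, *Unc5a* and *Epha3* were called lower in *Mbd3* KO and the other 3 were not. *Epha8*, *Sema4a* and *Ntn5*, which were called higher, ranked 61st, 60th and 64th of 65 in WT, so their rises started from low levels.

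In NPCs with MBD2t, the isoform without the coiled coil, 27 guidance genes were called lower and 5 higher than in WT, where 15.1% and 18.2% of all genes were, and the median log2 fold change was -0.86. Without s03 and the other libraries that stood apart, the counts were 33 and 6. Here 11 of 12 neural progenitor markers were called lower, and all 8 trophoblast and all 7 pluripotency markers higher, and their part was not tested. *Robo3* had 6.05, 5.17 and 6.19 CPM, *Epha3* 3.14, 1.70 and 3.84 CPM and *Epha8* 31.5, 35.4 and 46.4 CPM in the MBD2t libraries. Set directly against *Mbd3* KO, 0 guidance genes were called lower and 0 higher with edgeR and with DESeq2, while 0.0181% and 0.00603% of all genes were. An unadjusted p-value under 0.05 was found for 2 of them, *Sema3f* (-0.73) and *Efna5* (-0.54). The MBD2t libraries come from 1 clone, so these p-values rest on a spread that leaves out differences between its clones.

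In the libraries labelled MBD2a, 28 guidance genes were called lower and 7 higher than in WT, where 13.7% and 16.9% of all genes were, and a median log2 fold change of -0.88. Without s03, s04, s15 and s18 the counts were 33 and 5. In the same comparison 11 of 12 neural progenitor markers, 4 of 7 mesenchyme and 4 of 6 endothelial markers were called lower. Called higher were 6 of 8 trophoblast, 6 of 7 pluripotency and 5 of 8 extraembryonic endoderm markers, with 1 mesenchyme and 1 endothelial marker. The part of these markers in the result was not tested. The MBD2a, MBD2t and *Mbd3* KO comparisons share their WT libraries, so their values are given side by side. *Robo3* had 10.9, 18.9 and 3.75 CPM, *Unc5a* 11.1, 27.2 and 6.24 CPM and *Ntn4* 2.39, 1.89 and 3.59 CPM in the MBD2a libraries. All of these lay below every WT library. The fits against WT gave *Robo3* -5.53 in MBD2a, -6.46 in MBD2t and -6.41 in *Mbd3* KO, and *Epha1* 2.47, 2.61 and 2.75, as log2 fold changes.

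Set directly against *Mbd3* KO, from which they differed little in *Mbd2* RNA, the libraries labelled MBD2a had 7 guidance genes called lower and 3 higher, where 4.4% and 0.856% of all genes were. In the same comparison 5 of 6 endothelial, 2 of 8 trophoblast and 1 of 7 mesenchyme markers were called lower, and 3 of 12 neural progenitor markers higher. No pluripotency or extraembryonic endoderm marker was called, and the part of the markers in the result was not tested. *Epha8* had 4.37, 4.95 and 6.68 CPM with MBD2a against 34.4, 29.6 and 34.2 CPM in *Mbd3* KO (log2 fold change -2.61, standard error 0.39, adjusted p = 0.000241, edgeR). Against WT, *Epha8* was called higher with MBD2a as well (log2 fold change 1.18, standard error 0.43, adjusted p = 0.0242, edgeR), a call that was lost without s02, s03 or s15 (between 0.91 and 1.06). *Robo4* had 0.777, 0.560 and 0.739 CPM against 2.26, 4.14 and 3.23 CPM (log2 fold change -2.22, standard error 0.29, adjusted p = 6.57e-05, edgeR). *Sema3g*, a class 3 semaphorin known from vessels, had 0.403, 0.236 and 0.561 CPM against 1.00, 2.66 and 2.30 CPM (log2 fold change -2.30, standard error 0.44, adjusted p = 0.00247, edgeR). In all 3 genes no MBD2a library reached the lowest *Mbd3* KO library. *Plxnd1*, the receptor of *Sema3e* in vessels, had 17.5, 20.5 and 18.4 CPM against 32.2, 68.2 and 56.7 CPM (log2 fold change -1.48, standard error 0.38, adjusted p = 0.0173, edgeR), a call that was lost without s05, s06, s13 or s14 (between -1.54 and -1.25). *Sema7a*, a semaphorin held by a lipid anchor, had 3.02, 5.01 and 7.11 CPM against 22.4, 11.5 and 10.4 CPM (log2 fold change -1.54, standard error 0.34, adjusted p = 0.00750, edgeR), a call that was lost without s13 (-1.29). *Sema6b* (-1.504) and *Sema3f* (-1.41) were the other calls on this side. Without s04, s15 and the other libraries that stood apart, 9 were called lower and 4 higher.

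Among the genes higher with MBD2a than in *Mbd3* KO, *Plxna2* had 202, 88.2 and 29.2 CPM against 12.9, 31.6 and 32.9 CPM (log2 fold change 2.04, standard error 0.54, adjusted p = 0.0221, edgeR). The lowest MBD2a library was s15, in which chromosome 1 was low, and it lay within the range of *Mbd3* KO. The call was lost without s04, s05, s06 or s13 (between 1.17 and 2.25). *Sema4f* (log2 fold change 1.01, standard error 0.21, adjusted p = 0.00498, edgeR) and *Epha6*, with 0.547, 0.236 and 0.102 CPM against 0, 0.0443 and 0.106 CPM (log2 fold change 2.43, standard error 0.73, adjusted p = 0.0414, edgeR), completed the list, and their calls were lost without s05, s06 or s13 (between 0.94 and 1.00) and without s04, s05, s13 or s14 (between 1.62 and 2.55).

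In MBD2a and MBD2aΔGR the sum of endothelial markers and the levels of *Robo4*, *Sema3g* and *Plxnd1* lay below every WT library. These 3 genes were chosen from the calls above. *Unc5b*, which also acts in vessels, lay above every WT library in MBD2a (104, 67.7 and 58.8 CPM). In MBD2aΔGR it overlapped WT (34.8, 49.3 and 41.1 CPM against 43.5, 46.8 and 30.6 CPM). *Sema3g* in MBD2aΔGR overlapped *Mbd3* KO, with 1.47 CPM in s16 against 1.00 CPM in s04. The summed level of 6 endothelial markers was between 62.7 and 81.6 CPM in WT, between 128 and 227 CPM in *Mbd3* KO, between 161 and 173 CPM in MBD2t, between 21.7 and 32.7 CPM in MBD2a and between 10.1 and 15.3 CPM in MBD2aΔGR. Much of the sum in *Mbd3* KO and MBD2t was *Cdh5*. It had 23.7, 36.1 and 23.3 CPM in WT, 85.2, 146 and 174 CPM in *Mbd3* KO and 98.3, 100 and 93.0 CPM in MBD2t. Compared with WT, 2 of the 6 markers were called higher in *Mbd3* KO and 3 in MBD2t, and 0 lower in either line. Against *Mbd3* KO, 5 of the 6 were called lower with MBD2a, and *Emcn* had 0.0863, 0.118 and 0.178 CPM there. *Tek* was not called (-0.84, adjusted p = 0.306, edgeR). *Epha8* had 34.4, 29.6 and 34.2 CPM in *Mbd3* KO, 31.5, 35.4 and 46.4 CPM in MBD2t and 4.37, 4.95 and 6.68 CPM in MBD2a. In WT it had 3.73, 1.93 and 1.44 CPM, and in MBD2aΔGR 0.891, 1.04 and 0.388 CPM. The part of the markers' cells in the levels of *Robo4*, *Plxnd1*, *Sema3g* and *Epha8* was not tested.

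**Figure D3:**
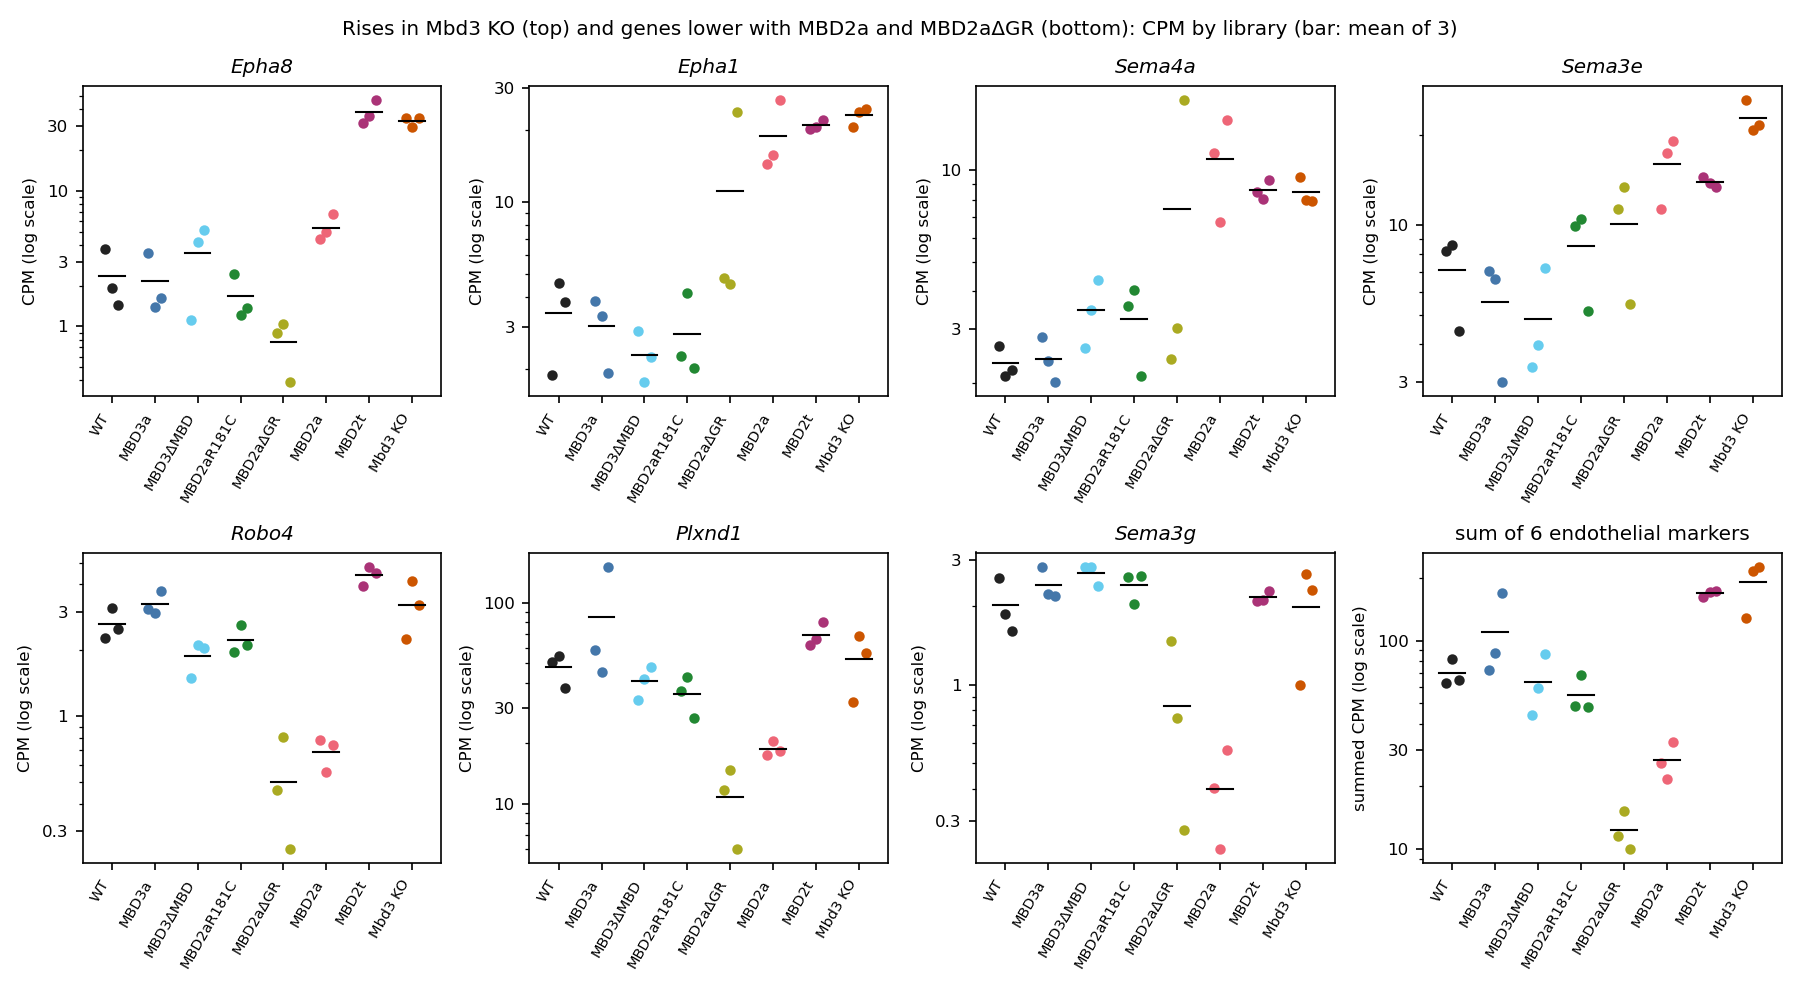
CPM (log axis) by line of 4 guidance genes called higher in *Mbd3* KO (top row), of *Robo4*, *Plxnd1* and *Sema3g*, and of the sum of 6 endothelial markers (bottom row); points are libraries and bars are means of 3 libraries. *Epha8* is high in MBD2t and *Mbd3* KO and lower in MBD2a. In the bottom row the means are lowest in MBD2a and MBD2aΔGR, where the marker sum lies between 10.1 and 32.7 CPM.

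With MBD3a, MBD3ΔMBD and MBD2aR181C, no guidance gene was called against WT in either direction, by edgeR or by DESeq2. Among all genes, 0% were called lower and 0% higher with MBD3a, 0.0181% and 0% with MBD3ΔMBD, and 0.0121% and 0.00603% with MBD2aR181C. The guidance genes with an unadjusted p-value under 0.05 numbered 1, 3 and 2 of 64 in these lines. They were *Plxnd1* with MBD3a (0.83), *Efna4* (0.45), *Ephb1* (0.70) and *Sema3b* (-0.48) with MBD3ΔMBD, and *Sema3d* (-1.35) and *Sema4f* (0.47) with MBD2aR181C, as log2 fold changes. *Plxnd1* had 58.6, 45.3 and 152 CPM in MBD3a, and the highest of these libraries, s09, also had the highest sum of endothelial markers of the line (168.9 CPM). *Robo3* had 605, 325 and 336 CPM with MBD3a, 406, 597 and 664 CPM with MBD3ΔMBD and 717, 338 and 466 CPM with MBD2aR181C, all within the range of the WT libraries.

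The libraries labelled MBD2a were also set against MBD2aR181C, a comparison that shares no library with *Mbd3* KO against WT. Its lines differ in the exchange in the MBD domain and also in *Mbd2* RNA, between 67.0 and 87.2 CPM against between 253 and 325 CPM, and the 2 cannot be told apart. In it 27 guidance genes were called lower and 7 higher, where 12.2% and 15.1% of all genes were. Of the markers, all 12 neural progenitor, 4 of 7 mesenchyme and 4 of 6 endothelial ones were called lower. Called higher were 7 of 8 trophoblast, 3 of 7 pluripotency and 5 of 8 extraembryonic endoderm markers, with 1 mesenchyme and 1 endothelial marker. The part of these markers was not tested, and it cannot be told apart from the 2 differences named. Of the 23 genes lower in *Mbd3* KO, 20 were also lower here, which is 87.0% of the first list and 74.1% of the second, and over all genes 71.3% of the genes called lower in *Mbd3* KO were. Of the 8 genes higher in *Mbd3* KO, 6 were higher here, and 0 genes were called in opposite directions. Across the 64 genes the log2 fold changes had a Pearson correlation of 0.87 and a Spearman correlation of 0.82, against 0.87 and 0.87 across all genes. These describe genes within the same libraries, which are not independent replicates. *Epha3* had 3.37, 5.21 and 1.20 CPM with MBD2a and 206, 126 and 190.5 CPM with MBD2aR181C (log2 fold change -5.75, standard error 0.61, adjusted p = 1.73e-06, edgeR). The genes that differed most between the comparisons were *Plxna2*, with -3.15 in *Mbd3* KO against WT and -0.52 here, and *Sema3g*, with 0.00 and -2.57. They were chosen after their values were seen.

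**Figure D4:**
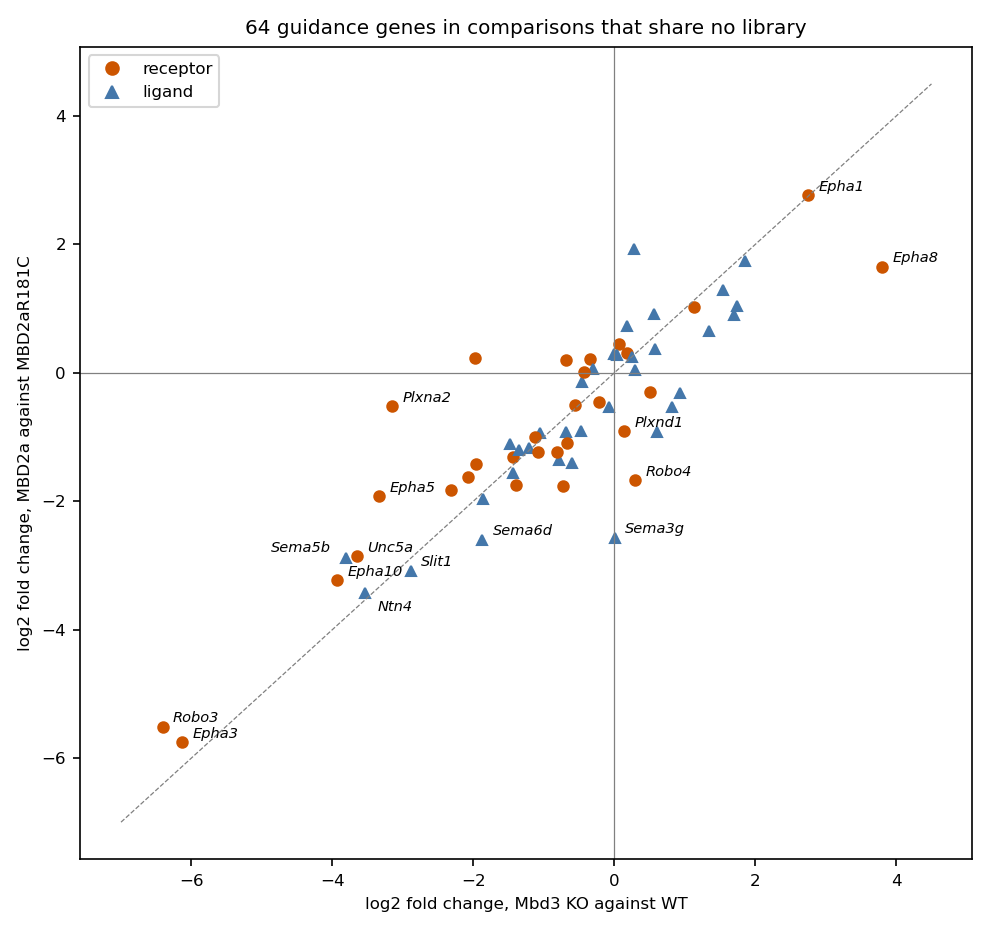
Log2 fold changes of the 64 tested guidance genes (circles are receptors, triangles are ligands) in *Mbd3* KO against WT (x) and in MBD2a against MBD2aR181C (y), with the line of equal values dashed. *Robo3* and *Epha3* lie lowest on both axes, *Epha1* lies highest on the y axis, and *Robo4* and *Sema3g* are low on the y axis only.

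In MBD2aΔGR NPCs, compared with WT, 6 guidance genes were called lower and 3 higher, where 2.47% and 2.69% of all genes were, with a median log2 fold change of -0.23. Without s03 and s18, and s04 and s15 of other lines, 3 were called lower and 0 higher. Leaving out 1 library at a time gave between 2 (without s01, s02 or s18) and 15 (without s16) called lower, and between 0 (without s01, s02, s03 or s18) and 4 (without s16) called higher. The 3 libraries differed strongly. *Robo3* had 398, 139.9 and 39.7 CPM and *Epha3* 133, 79.0 and 19.4 CPM, with s18, the library with many reads on extraembryonic endoderm markers, lowest each time. Neither was called (*Robo3* -1.41, adjusted p = 0.144, and *Epha3* -1.20, adjusted p = 0.121, edgeR). The 2 calls with the smallest adjusted p-values were *Robo4*, with 0.461, 0.804 and 0.249 CPM against 2.28, 3.11 and 2.51 CPM in WT (log2 fold change -2.39, standard error 0.32, adjusted p = 0.000462, edgeR), and *Plxnd1*, with 11.7, 14.7 and 5.98 CPM against 50.8, 54.5 and 38.0 CPM (log2 fold change -2.14, standard error 0.39, adjusted p = 0.00476, edgeR). Both kept their call without any one library and lost it when MBD2aΔGR and WT were fitted alone (*Robo4* adjusted p = 0.115, *Plxnd1* adjusted p = 0.0920, edgeR), and *Plxnd1* also lost it with glmTreat (adjusted p = 0.108). In the same comparison 5 of 6 endothelial, 4 of 7 mesenchyme and 1 of 12 neural progenitor markers were called lower. Called higher were 7 of 8 extraembryonic endoderm and 1 of 7 pluripotency markers, and 0 of 8 trophoblast markers were called. The part of these markers was not tested. The other 7 calls of guidance genes were each lost without 1 of several libraries. Those of *Epha1* (4.82, 4.53 and 23.96 CPM) and *Sema4a* (2.396, 3.04 and 16.95 CPM), both highest in s18, were lost without s01, s02, s03 or s18 (between 0.45 and 1.91) and without s01, s02, s03 or s18 (between 0.22 and 1.74). *Slit1* (19.9, 9.17 and 3.32 CPM, -1.75), *Sema5a* (5.13, 4.05 and 6.18 CPM, -1.70), *Sema3g* (-1.30), *Sema6b* (-1.11) and *Epha6* (1.65) were the others, as log2 fold changes, with calls lost without s01, s02, s17 or s18 (between -1.67 and -1.31), without s01, s02, s17 or s18 (between -1.86 and -1.42), without s01, s02, s17 or s18 (between -1.37 and -0.86), without s01, s02 or s18 (between -1.03 and -0.96) and without s01, s02, s03, s17 or s18 (between 1.43 and 1.75), in that order.

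Set directly against MBD2aΔGR, which lacks the glycine-arginine stretch and held more *Mbd2* RNA (280 to 700 against 67.0 to 87.2 CPM), so that the 2 cannot be told apart, the libraries labelled MBD2a had 18 guidance genes called lower and 3 higher, where 8.02% and 10.6% of all genes were. The largest falls were those of *Epha3* (log2 fold change -4.58, standard error 0.58, adjusted p = 2.48e-05, edgeR), *Robo3* (log2 fold change -4.11, standard error 0.69, adjusted p = 0.000239, edgeR) and *Unc5a* (log2 fold change -2.78, standard error 0.37, adjusted p = 3.64e-05, edgeR), and the rises were *Epha8* (2.80), *Ntn5* (1.51) and *Sema3b* (1.33), of which that of *Ntn5* was lost without s15 or s16 (between 1.18 and 1.22). *Unc5a*, whose libraries did not overlap, had 131, 92.1 and 82.0 CPM in MBD2aΔGR and 11.1, 27.2 and 6.24 CPM in MBD2a. *Robo4* and *Plxnd1*, low in both lines, were not called here, *Robo4* at 0.47 (adjusted p = 0.368) and *Plxnd1* at 0.80 (adjusted p = 0.114, edgeR). In the same comparison 11 of 12 neural progenitor and 1 of 8 extraembryonic endoderm markers were called lower. Called higher were 4 of 8 trophoblast, 2 of 7 pluripotency, 2 of 7 mesenchyme and 3 of 6 endothelial markers. The part of these markers was not tested.

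RefSeq promoters were found by symbol for 56 of the 65 guidance genes. In the 250 bases before the start, genes called lower in *Mbd3* KO had a median of 17 CG (19 genes, 7.5 to 26) and genes called higher a median of 7 (7 genes, 2 to 46), where genes with several starts count with their median. Genes not called had a median of 16.5 (29 genes). Over all tested genes with a promoter the medians were 14 for those called lower, 8 for those called higher and 16 for the rest. At least 10 CG were found in 89.5% of the guidance genes called lower, 28.6% of those called higher and 72.4% of those not called. Over all tested genes with a promoter the shares were 68.2%, 45.5% and 76.0%, in that order. The differences were not tested. *Epha8*, with 46 CG, had more than 99.7% of all genes of the table, and *Unc5b* had 27, while the other 5 genes called higher held between 2 (*Ntn5* and *Sema4d*) and 9 (*Epha1*).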

How the data were processed

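Poly(A) RNA of NPCs was sequenced as directional single-end libraries. Per the study's methods, the authors trimmed reads with Trim Galore, aligned them with STAR to mm9 and counted them per GENCODE gene with QuasR. The deposited values are raw counts per gene, and the strand setting of the counting is not given in the sources used here. The columns carry no replicate numbers, so libraries keep the names s01 to s24 that the columns give them, each assigned to its line by the column name. Every per-sample column was used (0 left out).

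From these counts, genes were kept by filterByExpr (minimum count 10, minimum total 15), scaled by TMM and tested in R 4.3.3 with edgeR 4.0.16 (glmQLFit and glmQLFTest, all 24 libraries, line as the only term). Calls needed a Benjamini-Hochberg adjusted p under 0.05 over all 16582 genes and an absolute log2 fold change above 1. An exact permutation test of 3 against 3 libraries cannot go below p = 0.1 and was not used. Standard errors are the fold change divided by the root of F. CPM use TMM-scaled library sizes, and per kb of exon for levels between genes. Alternatives were DESeq2 1.42.0, other scalings and filters, the older quasi-likelihood method, glmTreat, fits of the compared libraries alone, and libraries left out. The scripts were tested on simulated data.

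The members and gene lists were chosen with earlier results of these data known. Values of each library are given for the called gene with the largest change in each family (mean log2 CPM of at least 1), for the 8 largest falls and the 7 rises without overlap in *Mbd3* KO (the rule allowed up to 8), and for the 6 largest calls of the other lines. Other genes are examples of their family. One result of the effector list is not reported here. The mutant labelled R181C is R64C in the column names and R191C in the study's text, and was taken as a single line. Replicates are clones, except in MBD2t. The spread behind every p-value was estimated over all 24 libraries together. It therefore mixes differences between clones with those between the repeats of the MBD2t clone.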

Additional observations from a re-analysis of the deposited data

How the results depend on the processing

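In counts of guidance genes called lower and higher, leaving out each library in turn gave 17 to 25 and 7 to 10 for *Mbd3* KO against WT, 25 to 34 and 5 to 9 for MBD2a, 24 to 32 and 5 to 8 for MBD2t, and 2 to 15 and 0 to 4 for MBD2aΔGR. For MBD2a the ranges were 6 to 8 and 0 to 3 against *Mbd3* KO, 20 to 31 and 6 to 8 against MBD2aR181C, and 12 to 26 and 3 to 7 against MBD2aΔGR. The extremes for MBD2aΔGR came without s01, s02 or s18 (lowest) and s16 (highest). The ranges stayed at 0 for MBD3a, MBD3ΔMBD and MBD2aR181C against WT and MBD2t against *Mbd3* KO. With glmTreat, which tests against the fold threshold itself, the counts were 14 and 4 for *Mbd3* KO, 17 and 3 for MBD2a, 15 and 3 for MBD2t, 1 and 0 for MBD2aΔGR, 2 and 0 for MBD2a against *Mbd3* KO, 12 and 1 against MBD2aR181C and 7 and 1 against MBD2aΔGR. Fitting the compared libraries alone gave 0 and 0 for MBD2aΔGR, 4 and 1 for MBD2a against *Mbd3* KO and 11 lower against MBD2aΔGR. The count called higher with MBD2aΔGR was 1 with the older quasi-likelihood method and 1 without a low-count filter. Without scaling beyond library size, 8 were higher with MBD2t and 5 with MBD2a against MBD2aΔGR, and the all-gene median moved from -0.03 to 0.11 in *Mbd3* KO against WT. Without s03, s04, s15 and s18, a choice made after seeing the data, MBD2aΔGR had 3 and 0 and MBD2a against MBD2aΔGR had 5 higher. No result reversed under the alternatives run. The shares of all genes called were not computed for these alternatives, so their counts describe the members only. Of all calls of guidance genes over all comparisons, 7 were lost and 165 kept with DESeq2, and 7 were lost and 165 kept with RLE scaling. With glmTreat 92 were lost and 80 kept. The causes were not tested. No paired analysis was possible because the deposited columns carry none of the replicate numbers of the labels. With 3 libraries per line, calls close to a log2 fold change of 1 depend on single libraries.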
